A study of Mus musculus with 1 sample.

Results

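Oligodendrocytes are the glia that wrap central axons in myelin, and 9 genes of that lineage were examined in primary mixed glia of the mouse ventral midbrain (VM). They were the transcription factors Olig1, Olig2, Sox10 and Nkx2-2 and the myelin genes Mbp, Cnp, Mag, Mog and Mobp, listed from precursor to myelinating stage. Each was found as the row carrying its gene symbol, and the 9 genes had 1 row each among 23282 rows. The list was set by gene function and not by a cut on measured values. Earlier results of these data were known when the list was chosen.

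The measured RNA came from 1 library, labelled as control. The glia were taken from the brain of outbred ICR(CD-1) pups of postnatal day 5, and the study's methods describe growth in serum-containing medium, trypsin passage and replating on poly-d-lysine. The control received the vehicle DMSO without the SGK1 inhibitor GSK650394, according to the study, and neither the number of pups nor a toxin treatment of this library is given in the sources used here. Such a culture is a mixture of cell types selected by adhesion and growth in serum, and no axons were added to it. There was no replicate and no second group, so each value below is a description of this library, with no error between cultures and no test.

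Oligodendrocytes arise from proliferating precursors. OLIG1 and OLIG2, neighbouring basic helix-loop-helix factors, and the homeodomain factor NKX2-2 act in specification and early differentiation, and SOX10, a high mobility group factor, is needed for the switch to myelin gene expression. Differentiated cells then make the proteins of the sheath: MBP and MOBP lie at the cytoplasmic faces of compact myelin, CNP in cytoplasm-filled channels, MAG at the face towards the axon, and MOG on the outermost surface. In culture, precursors can differentiate and express myelin genes without contact with axons.

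All 9 genes were detected, meaning a value of 10 or more on the normalised read count scale of the authors. Among all rows the same minimum was reached by 67.2%. The 9 values ran from 48 for Sox10 to 10966 for Mbp, with a median of 508, beside a median of 469 over detected rows. Mbp, Cnp and Mag held the highest values, and 5 of the 9 genes lay above that median. With a minimum of 100, 8 of the 9 were reached, and Sox10 was the gene left out.

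**Figure D1:**
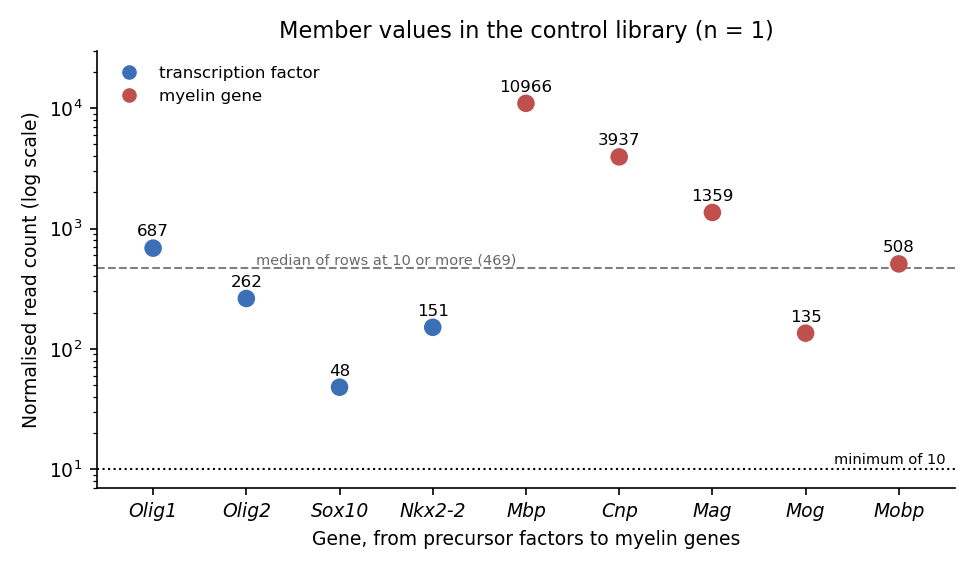
Normalised read count of each of the 9 genes in the control library on a log axis, with transcription factors in blue and myelin genes in red. Mbp at 10966 stands highest, Sox10 at 48 lowest, and the dashed line marks the median of detected rows at 469.

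Values as deposited depend on gene length, so levels of different genes were compared after division by length, and comparisons of undivided values are marked as such. The length was the union of annotated exons, and the quotients were scaled to sum to 1000000 over all rows with a length; this scale is called the level per exon kb below. The median of detected rows was 9.65 on this scale. In descending order the 9 levels were 122 for Mbp, 102 for Cnp, 31.4 for Mag, 29.9 for Olig1, 9.76 for Olig2, 7.47 for Mog, 6.99 for Mobp, 4.95 for Nkx2-2 and 1.48 for Sox10. Thus 2 of the 4 transcription factors and 3 of the 5 myelin genes lay above the median of detected rows. Without replicates it cannot be said which neighbours in this order differ beyond their spread.

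Among the transcription factors, Olig1 was highest. It lies on chromosome 16 (91269772 to 91271933 in GRCm38, plus strand) and is a gene of 1 exon, of which 7.26% of bases are shared with the opposite-strand gene Gm15966. Its value was 687, and its level per exon kb was above 74.9% of detected rows. Olig2, which is required for oligodendrocyte formation, lies upstream on the same strand (91225457 to 91228677). The gap between them is 41094 bases and holds 1 annotated gene, which is not protein-coding. Olig2 had a value of 262, and its level was above 50.2% of detected rows. Per exon kb the level of Olig1 was 3.07 times that of Olig2.

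Nkx2-2 lies on chromosome 2 (147177546 to 147194243, minus strand) and had a value of 151, with a level above 35.3% of detected rows. Of its exon bases, 9.67% are shared with the antisense gene Nkx2-2os, which had a value of 23. Sox10, on chromosome 15 (79154908 to 79165240, minus strand), was the lowest of the 9, with a value of 48 and a level above 16.2% of detected rows. Its level was 20.2-fold below that of Olig1 and 6.58-fold below that of Olig2. The 4 factors therefore spanned a wide range, with the OLIG pair above the other two, on the deposited scale as well as per exon kb.

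Mbp encodes the basic protein that holds the cytoplasmic membrane faces of compact myelin together. It occupies 82475146 to 82585637 of chromosome 18, on the plus strand. No exon base of Mbp is shared with another annotated gene. Its value was 10966, or 398 per 1000000 of the sum of all values, and its level per exon kb was above 92.8% of detected rows. The annotation gives Mbp 16 transcripts. Of these, 4 begin at an upstream start and 12 at or beyond starts about 79.3 kb downstream. The upstream transcripts are known as Golli-Mbp and are made outside myelin as well, including in immune cells, whereas the downstream ones encode the classic myelin proteins. The single row holds reads of either kind. Upstream-start transcripts alone cover 5878 of the 8469 exon bases. With a length limited to the exons of the downstream group, the level of Mbp was 399 in place of 122. The whole value was kept in this division, with any reads from the upstream-only bases. The 399 is therefore an upper limit for the downstream group at this length of 2591 bases only. Single downstream transcripts have 354 to 2070 bases, and division by a shorter length would give a higher level. Comparisons of Mbp with other genes below use the length over all exons.

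Cnp encodes a membrane-bound phosphodiesterase of the oligodendrocyte cytoplasm. It lies on chromosome 11 (100574904 to 100591729, plus strand), with a value of 3937 and a level above 91.5% of detected rows. Of its exon bases, 4.23% are shared with Dnajc7 on the opposite strand, which had a value of 4686 and a level per exon kb of 90.8. The strand setting of the counting is not stated, so reads from the shared stretch could belong to either gene. Per exon kb, the level of Mbp was 1.20 times that of Cnp, and as deposited the value of Mbp was 2.79 times that of Cnp.

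Mag encodes a sialic acid-binding adhesion protein. It lies on chromosome 7 (30899176 to 30914873, minus strand) and had a value of 1359, with a level above 75.7% of detected rows. This level was 1.05 times that of Olig1, the closest pair among high members. Mag stood 3.24-fold below Cnp and 3.88-fold below Mbp.

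Mog and Mobp were the low myelin genes. Mog, an immunoglobulin-like surface protein and a marker of mature oligodendrocytes, lies on chromosome 17 (37010743 to 37023398, minus strand). Its value was 135, the second lowest of the 9, and its level was above 44.2% of detected rows. Mobp lies on chromosome 9 (120149707 to 120181484, plus strand) and had a value of 508, with a level above 42.6% of detected rows. Its exon union of 6849 bases is far longer than its median protein-coding transcript of 498 bases, and 1.15% of it is shared with Gm38642 on the same strand. Per exon kb the level of Mbp exceeded that of Mog 16.3-fold and that of Mobp 17.5-fold. Mog and Mobp differed by a factor of 1.07 per exon kb, with Mog higher, although the deposited value of Mobp was higher.

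**Figure D2:**
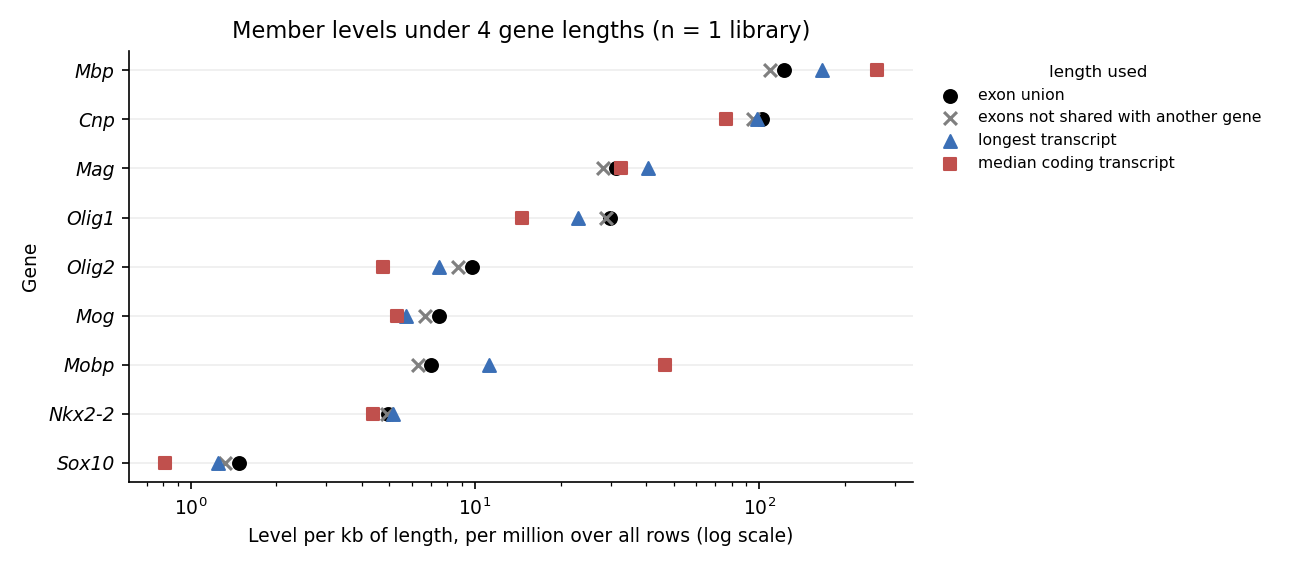
Level per kb, scaled to 1000000 over all rows (log axis), of each gene with 4 definitions of length, namely all annotated exons, exons not shared with another gene, the longest transcript and the median coding transcript. Mbp and Cnp lead and Sox10 is last under each, while Mobp ranges from 6.32 to 46.8.

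The order of the 9 genes was partly set by the length chosen. Of 36 gene pairs, 34 kept their order with the longest transcript as the length, 31 with the median protein-coding transcript, 35 with exons not shared with another gene, and 33 with no division by length. Mbp was first, Cnp second and Sox10 last under these 4 alternatives. The pairs that changed place mostly included Mobp, which came after Mbp and Cnp at a level of 46.8 with the median coding transcript. Mag and Olig1 changed place when shared exon stretches were left out of the length, while reads from those stretches stayed in the values.

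The 9 values summed to 18053, which is 655 per 1000000 of all values. Mbp supplied 60.7% of this sum and Cnp 21.8%, so these genes together held 82.6%. Mag added 7.53%, Olig1 3.81% and Mobp 2.81%, and each of the remaining 4 genes added less than 2%. Per exon kb, Mbp and Cnp held 70.9% of the summed level. The 5 myelin genes exceeded the 4 transcription factors 14.7-fold in summed value and 5.85-fold in summed level per exon kb. Without Mbp the other 8 genes came to 257 per 1000000.

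**Figure D3:**
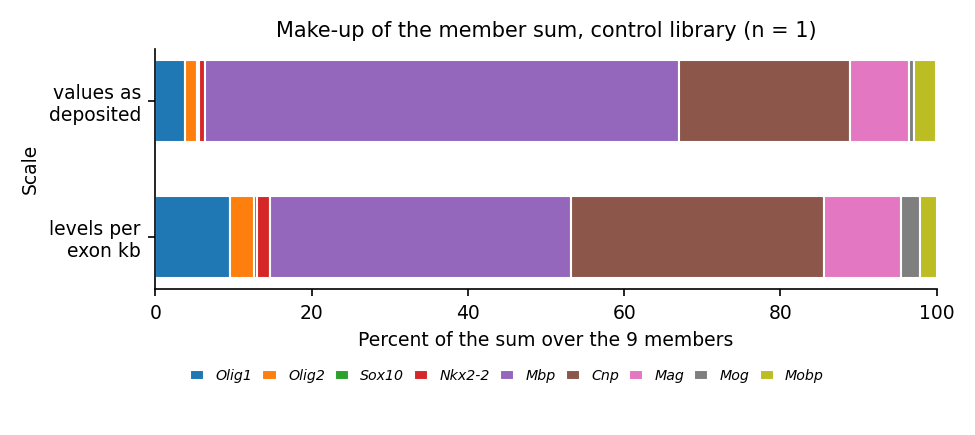
Share of each gene in the sum over the 9 genes, in percent, for values as deposited (upper bar) and levels per exon kb (lower bar). Mbp and Cnp fill 82.6% of the upper and 70.9% of the lower bar, and the 4 transcription factors on the left fill little of either.

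Reads can also be lost or gained where sequence is repeated elsewhere. Transcripts of the 9 genes were aligned to all annotated transcripts, and matches of 50 bases or more at 90% identity or more in genes elsewhere in the genome were counted. None was found for Olig1, Olig2, Sox10, Cnp, Mog or Mobp. Nkx2-2 matched 1 gene, Nkx2-4, over 166 bases. Mag matched 17 genes over up to 170 bases, and Mbp matched 774 genes over up to 95 bases. How multi-mapped reads were treated is not stated, so the part of these stretches in the values of Mbp, Mag and Nkx2-2 was not tested.

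The sequence just upstream of the genes was compared next, since it is a feature the selection did not use. RefSeq promoters on GRCm38.p6 were at hand for 6 of the 9 genes (Olig2, Nkx2-2, Cnp, Mag, Mog and Mobp). Vertebrate promoters fall broadly into CpG-rich ones, common among developmental regulators and widely expressed genes, and CpG-poor ones, common among genes of differentiated cells. In the 250 bases before the listed start, Olig2 had 22 CG dinucleotides, Cnp 13 and Nkx2-2 8, against a median of 6 over 32817 promoters. The stretch of Nkx2-2 (chr2:147186403-147186652) lies inside the annotated gene, because other transcripts of it begin further upstream. Mobp had 4, Mag 3 and Mog 2. Olig2 had more CG than 85.2% of promoters, and Mog more than 18.8%. Stretches of Olig2, Cnp and Mog are printed as the rich, middle and poor examples, 5′ to 3′ on the strand of the gene, with CG in capitals, and cut where the first annotated transcript begins. They lie at chr16:91225300-91225456, chr11:100574689-100574903 and chr17:37023399-37023648.
Olig2: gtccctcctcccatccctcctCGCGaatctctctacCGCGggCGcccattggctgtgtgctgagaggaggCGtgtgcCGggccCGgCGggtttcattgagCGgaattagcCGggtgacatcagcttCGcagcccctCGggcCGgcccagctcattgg
Cnp: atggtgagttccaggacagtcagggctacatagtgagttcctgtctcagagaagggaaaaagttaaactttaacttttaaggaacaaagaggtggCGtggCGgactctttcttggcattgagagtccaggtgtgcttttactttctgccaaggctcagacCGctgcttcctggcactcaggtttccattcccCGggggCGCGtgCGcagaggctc
Mog: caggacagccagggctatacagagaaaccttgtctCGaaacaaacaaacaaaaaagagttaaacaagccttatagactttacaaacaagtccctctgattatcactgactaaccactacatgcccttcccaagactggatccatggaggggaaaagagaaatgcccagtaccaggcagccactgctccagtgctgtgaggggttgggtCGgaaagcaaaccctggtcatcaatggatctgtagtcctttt
The counts in the stretches above are 14 in 157 bases for Olig2, 7 in 215 bases for Cnp and 2 in 250 bases for Mog. Among these examples the order of CG content was not the order of expression, since Cnp had the highest level per exon kb.

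Factors of the SOX family, to which SOX10 belongs, bind short AT-rich sequences, and the letters ACAAAG were searched on either strand (as ACAAAG or CTTTGT) in the same 250 bases. These letters were picked after the promoters had been inspected, so the counts are a description and the place of Mobp among all promoters is no test. At least 1 match was present in 16.5% of all promoters. Cnp and Mag had 1 match each, and Olig2, Nkx2-2 and Mog had none. Mobp had 6 matches, and it was the only 1 of the 32817 promoters with 6 or more. The stretch is shown because of this count, from chr9:120149492-120149706 on the plus strand, with matches in capitals.
Mobp: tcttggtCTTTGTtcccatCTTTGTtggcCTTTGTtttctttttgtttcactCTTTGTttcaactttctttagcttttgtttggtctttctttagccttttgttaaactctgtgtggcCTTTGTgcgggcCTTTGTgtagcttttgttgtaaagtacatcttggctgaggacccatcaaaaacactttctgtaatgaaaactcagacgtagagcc
The 6 matches are all in the orientation CTTTGT, within a run of related thymine-rich repeats. A match is a description of letters and not of binding, and Sox10 itself was the lowest of the 9 genes in this library.

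The other genes of the lineage were described from lists given by stage. All 13 other lineage transcription factors with a row were detected, with a median level per exon kb of 2.54. The median was 2.92 over all rows, 9.65 over detected rows and 9.76 over the 9 genes. Zfp488, a cofactor of OLIG2, was at a value of 2368 (level 51.9), Zeb2 at 6401 (level 30.2) and Yy1 at 1406 (level 20.6), and Zfp536 was lowest per exon kb at a value of 13 (level 0.133). Zeb2 and Yy1 are used by many cell types. Myrf, the regulator that drives myelin genes, had a value of 231 (level 2.54) and was picked from the list after its value was seen.

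Of 10 precursor genes, 9 were detected, with a median level of 4.23. C1ql1, a secreted protein of precursors, was at a value of 569 (level 36.4), the proteoglycan gene Bcan at 1332 (level 30.9) and Cspg4, which encodes NG2, at 2634 (level 20.8). Neu4, a sialidase gene, was listed at 0. Cspg4 is also made by pericytes and Bcan by astrocytes. Pdgfra, a receptor gene used as a marker of precursors, had a value of 188 (level 1.77) and was likewise picked after its value was seen. Which cells of the culture made it was not tested.

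All 8 premyelinating genes were detected, with a median level of 11.4. The adhesion gene Tns3 was at a value of 6149 (level 51.8), the kinase gene Fyn at 2302 (level 49.7) and Rras2 at 558 (level 14.8), and these 3 genes are expressed widely outside the lineage. Enpp6, a phosphodiesterase that marks newly formed oligodendrocytes, was lowest at 57 (level 0.838).

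Of 26 other myelin and mature oligodendrocyte genes, 25 were detected, and the list median of 2.92 equalled that of all rows. All rows include undetected ones, and the median of detected rows was higher, at 9.65. Trf, the transferrin gene, was highest at a value of 11440 (level 325), and 63.5% of its exon bases are shared with another annotated gene. The deacetylase gene Sirt2 followed at 4686 (level 87.7), and Aspa, which encodes aspartoacylase, was lowest at 21 (level 0.332). The list thus held a few high genes above many low ones.

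Myelin lipid genes divided in a similar way. All 7 were detected, with a median level of 3.66. Degs1 was at a value of 2251 (level 81.9), Cers2 at 2904 (level 74.4) and Elovl1 at 1762 (level 60.9), and these enzymes of sphingolipid and fatty acid synthesis are used in most cells. Fa2h, which makes the hydroxylated fatty acids of myelin galactolipids, was lowest at 43 (level 1.35).

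Genes that restrain oligodendrocyte differentiation had a median level of 13.3, and 8 of 10 were detected. Id2, an inhibitor of helix-loop-helix factors such as the OLIG proteins, was at a value of 6320 (level 244), Sox9 at 3410 (level 77.7) and Id4 at 1305 (level 31.9). Gpr17, a receptor of precursors on the verge of differentiation, was lowest at a value of 4. Sox9 also specifies glia and is made by astrocytes. Per exon kb the level of Id2 stood above that of each of the 9 lineage genes. It was below the 399 of Mbp, obtained with the whole value of Mbp over the downstream length and a limit at that length only.

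All 9 ligands that act on precursors were detected, with a median level of 10.6. Igf1 was at a value of 10624 (level 101), Pdgfa, the mitogen of precursors, at 2051 (level 62.0) and Cntf at 314 (level 27.6), and Dll1 was lowest at 17 (level 0.380). The exon bases of Cntf are shared to 78.9% with Zfp91, so its value is uncertain.

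Several of the 9 genes, among them Sox10, Mbp, Cnp and Mag, are also expressed by Schwann cells of peripheral nerve. Of 11 peripheral myelin and Schwann cell genes, 8 were detected, with a median level of 1.86. Foxd3, a factor of the neural crest, was listed at 0, and Pmp2, a fatty acid-binding protein of peripheral myelin, had a value of 2. The exon bases of Pmp2 are shared to 86.9% with Gm37389, so its low value is uncertain. Pmp22, which fibroblasts also express, was at 4683 (level 187), Egr2 at 289 (level 8.01) and Ncmap at 96 (level 4.06).

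Each of the 8 astrocyte and 8 microglia markers had a level per exon kb above the median of the 9 lineage genes. The median level per exon kb was 45.6 over 8 astrocyte markers and 334 over 8 microglia markers, against 9.76 over the 9 lineage genes. Gfap, the astrocyte filament gene, had a level of 385, followed by Aldoc at 168 and Aqp4 at 76.3, and Slc1a2 was lowest at 13.4. Aif1, which encodes the microglial protein IBA1, had a level of 224, below C1qa at 2955 and Csf1r at 513, and Tmem119 was lowest at 40.1. Gfap exceeded Mbp 3.15-fold and Sox10 260-fold per exon kb, and Aif1 exceeded Mbp 1.84-fold and Sox10 151-fold. With its whole value over the downstream length, Mbp at 399, a limit at that length only, would lie above Gfap and Aif1. As deposited, the value of Aif1, a short gene, was below that of Mbp. In a mixed culture, fewer oligodendrocytes and less RNA per cell cannot be told apart.

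Mesenchymal and pericyte markers were also high, with 7 of 8 detected and a median level of 57.7. Acta2 was at a level of 1137, Fn1 at 772 and Col1a1 at 243, and Rgs5 was lowest at 0.187. Neuron markers had a median level of 1.85, with 7 of 8 detected. Stmn2 was at 64.0, Tubb3 at 6.26 and Map2 at 4.97, and Slc17a6 was listed at 0. Of 6 endothelial markers 4 were detected, with a median level of 0.732, with Flt1 at 16.9, Kdr at 1.24 and Cdh5 at 0.964, and with Tek listed at 0. The part that any of these cell types has in the values of the 9 genes was not tested.

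**Figure D4:**
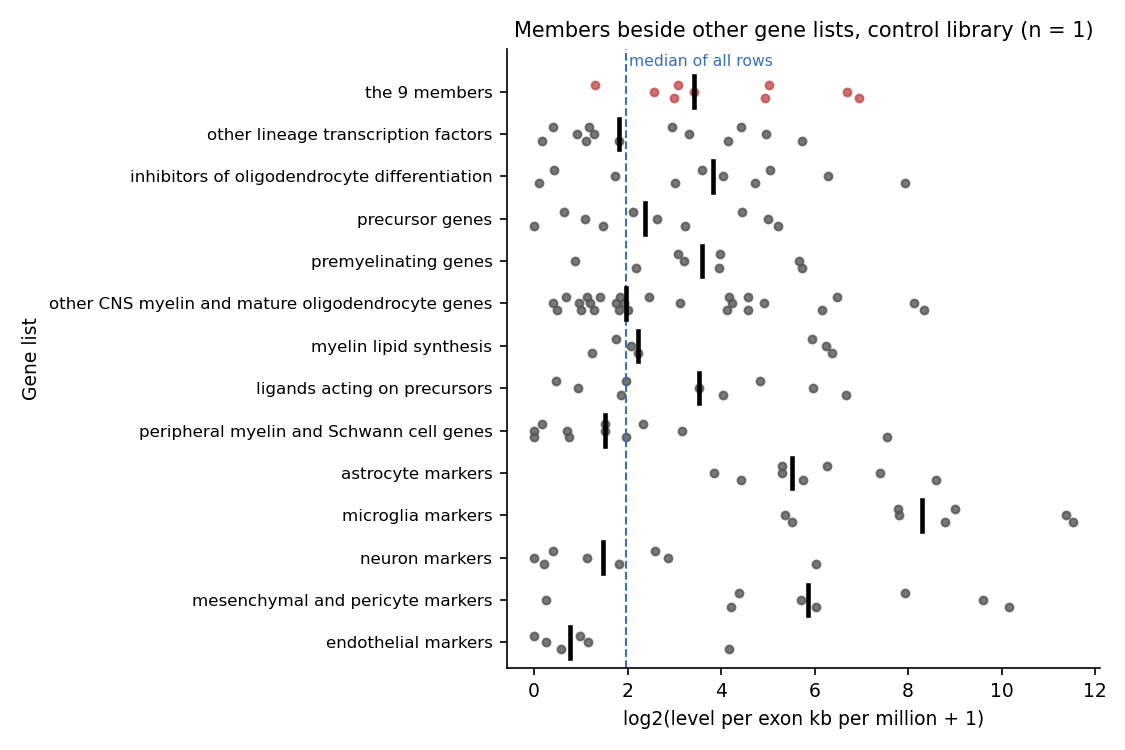
Level of each gene as log2(level per exon kb + 1), by gene list, with a point per gene, a black bar at the list median and a dashed line at the median of all rows. The 9 lineage genes (red) have a median of 3.43, beside 1.97 for all rows, 5.52 for astrocyte markers and 8.31 for microglia markers.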

How the data were processed

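RNA was extracted with Trizol from 1 control culture, and the library was made with a SMARTer mRNA kit. Per the methods, the authors trimmed bases under quality 20, mapped reads to GRCm38/mm10 with STAR, and counted reads on exons of RefSeq Release 105 genes with HTSeq-count. The submitters' processing notes list TopHat and edgeR instead, and versions are not given in the sources used here. Which of these made the table is not settled. The deposited values are a score on the read-count scale, which the authors call normalised read counts. They are whole numbers, but how they were normalised is not stated, so they were not used as raw counts, and no interval or detection floor was computed. Their sum was 27569507, and the read depth is unknown. A normalisation that acts on genes by length or composition would change levels per exon kb.

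Positions, exon lengths and overlaps came from GENCODE M21 (GRCm38), to which 22887 of 23282 rows (98.3%) were matched by symbol or RefSeq synonym. Detection meant 10 or more. Lists used a pseudocount of 1. Percentiles are shares of detected rows with a lower level per exon kb. Named beside the 9 genes were the 3 highest per exon kb and the lowest of each list, genes listed at 0, Gfap, Aif1 and genes with rows sharing exon bases with a member. Some genes selected by this rule are not reported here. The members and lists were chosen with earlier results of these data known, and the promoter motif was chosen after the promoters were inspected. The length steps were tested on simulated data, and the percentile step on values drawn from this library. Python 3.11.15, numpy 2.4.6, pandas 2.3.3, matplotlib 3.10.9 and BLAST 2.17.0 were used.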

Additional observations from a re-analysis of the deposited data

How the results depend on the processing

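No paired analysis was possible because there was 1 library, and for the same reason no replicate could be left out. The number of members detected was 9 at a minimum of 1 or 3 and 8 at 100. With the sum taken without Rn45s or without the 10 highest rows, the median member moved from 18.4 to 18.9 or 21.3 per 1000000 and the member sum from 655 to 671 or 756. Leaving out Mbp, an alternative added after seeing the data like that on Mbp starts, gave 257. The ratio of the median member to Gfap was 0.0254, with 0.0238 for the longest transcript and 0.0295 for values as deposited. The ratio to Aif1 was 0.0436, with 0.0371 and 0.139 in the same alternatives. Of 14 lists, the members included, 10 lay above all rows in median log2 level, 10 with a pseudocount of 0.1, 7 with genes at 10 or more only, 11 with the mean and 11 without division by length. The first 2 counts include the list of other myelin and mature oligodendrocyte genes, whose median equalled that of all rows to 2 decimals. The members lay above in each setting, but by only 0.01 with genes at 10 or more. The cause of these shifts was not tested, apart from the smaller sums, which raise every value per 1000000. With 1 library and an unknown read depth, the error of low members such as Sox10 is unknown.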
